A study of Homo sapiens with 6 samples.

Results

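The genes described here are 50 listed p53 targets and regulators of apoptosis: downstream genes of the transcription factor p53, the BCL2 family, death receptors, caspases and their activators, and caspase inhibitors. The members were chosen by symbol, and 30 of the 50 symbols, with 32 probe sets, were named in the platform annotation, among 14884 named genes. Of these, 26 had a mean log2 signal of at least 5 over the arrays and were tested, among 8620 genes tested. Transcript levels had been measured on 6 Affymetrix arrays, 1 for each of 3 established human ovarian cancer cell lines (SKOV-3, OVCAR-3 and ES-2) transfected with miR-135a-3p and 1 for each line transfected with miR-blank, the control. Every line thus gave 1 array per transfection, and the lines are the replicates of the comparison (n = 3). The kind of construct, the amount used and the harvest time were not stated in the sources used here.

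p53 is a transcription factor that DNA damage and other stress stabilise. Its targets halt the cell cycle, repair DNA, lower oxidative stress or start apoptosis, and MDM2, itself a target, has p53 degraded. In the mitochondrial pathway, BH3-only proteins release the effectors BAX and BAK1 from the anti-apoptotic BCL2 proteins, the effectors open the outer membrane, and cytochrome c assembles APAF1 and caspase-9 into the apoptosome.

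Of the members, 20 were not analysed here. Among p53 targets these were CDKN1A, MDM2, GADD45A, BTG2, XPC, DDB2, POLH, FDXR, ZMAT3 and PHLDA3. Among the death genes they were the receptors FAS, TNFRSF10A and TNFRSF10B, the BH3-only gene HRK, CASP8, CASP9, CYCS, DIABLO, BCL2L2 and BIRC3. A further 4 named members, BIK, BMF, RPS27L and SPATA18, lay under the mean of 5 and were not tested.

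The transfected arm is shown first because it defines the comparison, with its seed (bases 2 to 8) in capitals. The sequence is RefSeq's (GRCh38.p14, chr3:52294232-52294253, minus strand, from the hairpin gene MIR135A1).
hsa-miR-135a-3p: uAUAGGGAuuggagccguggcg

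Promoters of 3 members follow, each with 250 bases before and 50 bases after the start of the gene, from RefSeq (GRCh38.p14). AEN and BAK1 are shown because they hold a p53 half-site, and BAX because it is the effector whose signal was lower in every line. The capitals mark the p53 half-site consensus and the GC box (GGGCGG or CCGCCC, so both strands). In BAK1 a GC box and the half-site overlap by 1 base.
AEN, chr15:88621090-88621389, plus strand: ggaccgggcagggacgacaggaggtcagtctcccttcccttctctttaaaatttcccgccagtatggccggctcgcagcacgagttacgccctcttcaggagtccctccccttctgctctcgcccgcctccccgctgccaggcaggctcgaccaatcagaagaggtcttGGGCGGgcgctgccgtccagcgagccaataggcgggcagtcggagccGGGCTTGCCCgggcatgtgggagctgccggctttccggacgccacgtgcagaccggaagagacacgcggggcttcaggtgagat
BAK1, chr6:33580227-33580526, minus strand: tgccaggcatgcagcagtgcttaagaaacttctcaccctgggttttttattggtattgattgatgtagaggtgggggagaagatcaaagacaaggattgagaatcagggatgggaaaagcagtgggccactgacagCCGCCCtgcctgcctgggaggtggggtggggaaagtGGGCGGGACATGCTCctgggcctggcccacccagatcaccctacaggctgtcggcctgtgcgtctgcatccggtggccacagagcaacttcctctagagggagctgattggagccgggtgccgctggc
BAX, chr19:48954625-48954924, plus strand: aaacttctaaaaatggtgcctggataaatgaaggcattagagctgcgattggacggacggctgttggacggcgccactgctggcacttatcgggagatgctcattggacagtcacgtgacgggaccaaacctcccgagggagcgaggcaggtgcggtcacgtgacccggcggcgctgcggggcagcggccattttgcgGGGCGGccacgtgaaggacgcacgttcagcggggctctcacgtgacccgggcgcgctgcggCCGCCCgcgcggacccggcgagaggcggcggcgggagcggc

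Promoter windows were found for 25 of the 30 named members, 41 windows in all. The half-site consensus, which reads the same on both strands, stood in 4 of these 41 windows (9.76%), those of AEN, BAK1, RPS27L and 1 of the starts of SESN1, against 6.63% of all 35116 windows. The GC box stood in 31 of them (75.6%), against 45.0% of all windows. Some members have several windows that overlap, so the same box can be counted more than once. By gene, 4 of the 25 members held a half-site and 21 a GC box in at least 1 window. The share by gene over all promoters was not taken. BAX held 2 GC boxes and no half-site in this window. These matches describe the letters and do not show binding.

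Values are the deposited log2 signals, and a difference is taken as miR-135a-3p minus miR-blank. Where 3 values stand together without line names, the first is ES-2, the next OVCAR-3 and the last SKOV-3. In bulk RNA of this kind, fewer cells of a type and less RNA per cell cannot be told apart. MIR135A1 is the hairpin gene from which miR-135a-3p comes. It read 12.57, 12.20 and 11.58 after miR-135a-3p in ES-2, OVCAR-3, then SKOV-3, against 1.75, 2.26 and 2.07 after miR-blank (limma adjusted p 4.83e-05). Array medians lay between 4.16 and 4.23, and no detection calls were used here, so that a signal near or below the median could not be told from background. Differences spread over all genes tested with an SD of 0.30 for ES-2, 0.30 for OVCAR-3 and 0.48 for SKOV-3. Of 7 markers listed for the labelled tissue, 6 were named. The epithelial keratin KRT18 read 9.36 to 10.47 on all arrays, while EPCAM, an epithelial adhesion protein, read 3.78 to 4.32. Of the other keratins, KRT8 read 5.29 to 6.75 and KRT19 4.70 to 5.20. WT1 read 7.15 after miR-135a-3p and 6.14 after miR-blank in SKOV-3, and 5.59 to 5.95 elsewhere. PAX8, of the Mullerian lineage, read 8.12 and 8.80 in SKOV-3 and 4.12 to 4.80 elsewhere.

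Of markers of other cell types, 3 of 6 leukocyte, 3 of 4 endothelial and 2 of 5 fibroblast genes were named. The summed leukocyte signal ran from 16.19 to 19.62 after miR-135a-3p and from 16.06 to 19.44 after miR-blank. CD68, a lysosomal protein of macrophages, read 10.205 after miR-135a-3p in SKOV-3, against 7.96 after miR-blank, while in ES-2 it read 10.15 after miR-135a-3p and 10.40 after miR-blank. TYROBP, a signalling adaptor of myeloid cells, read 5.87 after miR-135a-3p in SKOV-3, against 5.17 after miR-blank, and the monocyte receptor CD14 lay below the median on all arrays. The endothelial genes summed to 12.60 to 12.91 after miR-135a-3p and 12.33 to 13.17 after miR-blank. The fibroblast genes summed to 4.85 to 6.17 after miR-135a-3p and 4.75 to 7.95 after miR-blank, with LUM at 2.84 against 6.05 in SKOV-3. The part of these markers in the SKOV-3 values given next was not tested.

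Across the 3 lines, limma (cell line as a block, Benjamini-Hochberg over all genes tested) called 0 of 26 members, where it called 1 gene, or 0.0116%, of all genes tested. The lowest adjusted p of a tested member was 0.999. At an unadjusted p under 0.05 there were 3 members, BCL2A1, TP53INP1 and BAX, all with lower signal after miR-135a-3p, beside 2.91% of all genes tested. The median of the mean differences was -0.02 over the members, beside -0.01 over all genes tested. In single lines the medians of the members were 0.03 for ES-2, -0.13 for OVCAR-3 and 0.12 for SKOV-3, beside -0.0057, -0.05 and 0.02 over all genes tested.

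In 6 members the sign agreed among all 3 lines (23% of all genes tested). Lower in every line were 3 members (13.4% of all genes tested), TP53INP1, BCL2A1 and BAX, and higher in every line were 3 members (9.54% of all genes tested), RRM2B, SESN1 and FBXO22. At least 2-fold was reached by 0 members in ES-2 (0.673% of all genes tested) and 0 in OVCAR-3 (0.673%). In SKOV-3 it was reached by 3 members, where 4% of all genes tested reached it: BCL2 with higher signal (2.34%) and BBC3 and CCNG1 with lower signal (1.66%). BBC3 (-1.02) fell just short of 2-fold with equal array medians (-0.98) and with quantile normalization (-0.98), which left 2 members. At least 1.5-fold was reached by 0 members in ES-2 (3.46%), 0 in OVCAR-3 (3.92%) and, for SKOV-3, 7 members (15.4%). Of these 7, BCL2, TP53I3 and AEN had higher signal (8.35%) and CCNG1, BBC3, APAF1 and TP53INP1 lower signal (7.03%). The SD of the members' differences was 0.25 for ES-2, 0.22 for OVCAR-3 and 0.62 for SKOV-3. Within a line there is 1 array per transfection, so these differences have no replicate check.

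**Figure D1:**
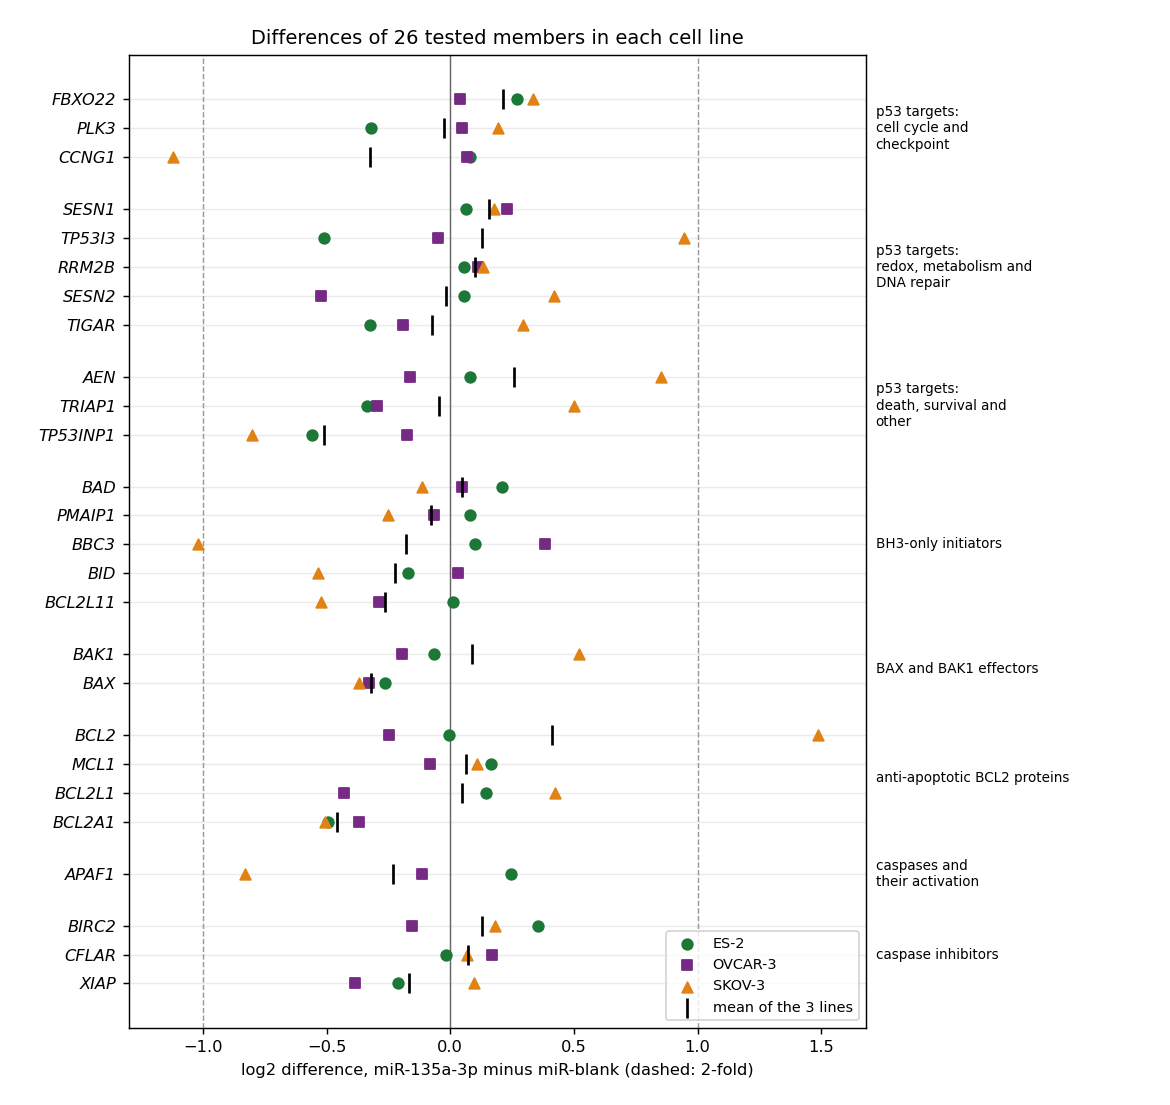
Each row is 1 of the 26 tested members, grouped by role, and the horizontal axis is the log2 difference, miR-135a-3p minus miR-blank. Symbols are the 3 lines, the black bar is their mean, and the dashed lines mark 2-fold. BCL2 (1.49), BBC3 (-1.02) and CCNG1 (-1.12) in SKOV-3 lie past 2-fold, and the symbols of BAX lie together between -0.37 and -0.26.

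BH3-only genes, the initiators of the mitochondrial pathway, had 7 of 8 listed genes named and 5 tested. Limma called 0 of the 5 (0.0116% of all genes tested), and 0 had the same sign in all lines (23% of all genes tested). Their median difference was 0.08 for ES-2, 0.03 for OVCAR-3 and -0.52 for SKOV-3, where the 5 tested had lower signal after miR-135a-3p and the 2 named but not tested, BIK (0.43) and BMF (0.18), had higher signal. Over all genes tested in SKOV-3, 4121 of 8620 had lower signal.

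BBC3 encodes PUMA, a p53-induced BH3-only protein that binds all anti-apoptotic BCL2 proteins. It read 6.12, 6.68 and 5.78 after miR-135a-3p in ES-2, OVCAR-3, then SKOV-3, against 6.02, 6.30 and 6.80 after miR-blank. The SKOV-3 array with miR-135a-3p was thus the lowest of all and the SKOV-3 array with miR-blank the highest, and the groups overlapped. The log2 difference in SKOV-3 was -1.02, or 2.03-fold lower, and the mean over the lines was -0.18 ± 0.74 (SD, n = 3; limma adjusted p 0.999). Without SKOV-3 the mean was 0.24, without OVCAR-3 -0.46 and without ES-2 -0.32.

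BID, which caspase-8 cleaves to link death receptors to mitochondria, read 7.12, 7.58 and 7.24 after miR-135a-3p, against 7.29, 7.54 and 7.78 after miR-blank. BCL2L11, the gene of BIM, an activator of BAX, read 4.595, 5.57 and 4.78 after miR-135a-3p, against 4.58, 5.86 and 5.30 after miR-blank. Both had their largest difference in SKOV-3 (-0.53 and -0.52), and the groups overlapped for both. Mean differences were -0.22 ± 0.29 for BID and -0.27 ± 0.27 for BCL2L11 (SD, n = 3; limma adjusted p 0.999). Without SKOV-3 these means were -0.07 and -0.14. Without OVCAR-3 the mean of BID was -0.35, and without ES-2 that of BCL2L11 was -0.40.

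PMAIP1 encodes NOXA, a BH3-only protein that binds MCL1. Its signals within a line lay close together, at 7.85, 4.15 and 8.72 after miR-135a-3p in ES-2, OVCAR-3, then SKOV-3, against 7.77, 4.22 and 8.97 after miR-blank. BAD, which growth factor signalling holds inactive by phosphorylation, had differences of 0.21 for ES-2, 0.05 for OVCAR-3 and -0.11 for SKOV-3. The 95% interval of the limma mean ran from -0.41 to 0.26 for PMAIP1 and from -0.28 to 0.38 for BAD. Of the genes not tested, BMF, a BH3-only protein bound to the cytoskeleton, read between 4.46 and 5.21, and BIK between 3.39 and 4.71. A second, dimmer BMF probe set read at most 3.36.

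The effectors BAX and BAK1 form the pore of the outer mitochondrial membrane, and limma called 0 of the 2. BAX read 7.07, 7.16 and 6.52 after miR-135a-3p in ES-2, OVCAR-3, then SKOV-3, against 7.33, 7.49 and 6.88 after miR-blank. Within each line the array with miR-135a-3p was the lower of the pair, while over the lines the groups overlapped. The log2 differences were -0.26, -0.33 and -0.37, with a mean of -0.32 ± 0.05 (SD, n = 3). Limma gave a 95% interval of -0.63 to -0.01, an unadjusted p of 0.0454 and an adjusted p of 0.999. The BAX difference lay at the 14.1, 12.6 and 14.9 percentile of all genes tested in ES-2, OVCAR-3, then SKOV-3.

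BAK1 read 7.45, 7.79 and 9.12 after miR-135a-3p, against 7.51, 7.99 and 8.604 after miR-blank. Its difference was 0.52 in SKOV-3, against -0.06 in ES-2 and -0.20 in OVCAR-3, and the mean was 0.09 ± 0.38 (SD, n = 3; limma adjusted p 0.999). Without SKOV-3 the mean was -0.13, without OVCAR-3 0.23 and without ES-2 0.16. The signs of BAX and BAK1 were opposite in SKOV-3 and alike in ES-2 and OVCAR-3, and this was not tested.

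Anti-apoptotic BCL2 proteins, which hold the effectors and BH3-only proteins, had 4 of 5 listed genes named and tested. Limma called 0 of the 4 (0.0116% of all genes tested), and 1 had the same sign in all lines (23% of all genes tested). The median difference was 0.07 for ES-2, -0.31 for OVCAR-3 and 0.27 for SKOV-3. In OVCAR-3 all 4 had lower signal after miR-135a-3p, where 5124 of 8620 genes tested had.

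BCL2, the founding member, read 6.26, 3.86 and 6.56 after miR-135a-3p in ES-2, OVCAR-3, then SKOV-3, against 6.27, 4.11 and 5.07 after miR-blank. The SKOV-3 difference of 1.49, or 2.80-fold higher, was the largest of any tested member in any line, and it lay at the 99.3 percentile of all genes tested. In OVCAR-3 both arrays lay below the array median, so the difference of -0.25 there was not shown to be above background. The mean over the lines was 0.41 ± 0.94 (SD, n = 3; limma adjusted p 0.999, 95% interval -0.38 to 1.20). Without SKOV-3 it was -0.13, without OVCAR-3 0.74 and without ES-2 0.62.

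BCL2A1, an anti-apoptotic protein induced by NF-kB, read 8.69, 3.53 and 4.31 after miR-135a-3p, against 9.19, 3.90 and 4.82 after miR-blank. The array with miR-135a-3p was the lower of the pair in each line, by 0.50, 0.37 and 0.50 in ES-2, OVCAR-3, then SKOV-3. The mean difference was -0.46 ± 0.07 (SD, n = 3), with an unadjusted limma p of 0.0114, an adjusted p of 0.999 and a 95% interval of -0.77 to -0.14. Only in ES-2 were both arrays far above the array medians. In OVCAR-3 both lay below, and in SKOV-3 the signals were near the median, so background could not be told apart from signal there.

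BCL2L1, the gene of BCL-XL, had differences of 0.14 for ES-2, -0.43 for OVCAR-3 and 0.42 for SKOV-3, and read 8.14, 7.10 and 8.87 after miR-135a-3p, against 8.001, 7.53 and 8.45 after miR-blank. MCL1, a short-lived anti-apoptotic protein, read 9.51, 9.17 and 10.10 after miR-135a-3p, against 9.35, 9.25 and 9.99 after miR-blank. The MCL1 differences lay between -0.08 and 0.16, well inside the spread of all genes, with a limma 95% interval of -0.26 to 0.39. BCL2L1 had an interval of -0.41 to 0.50.

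**Figure D2:**
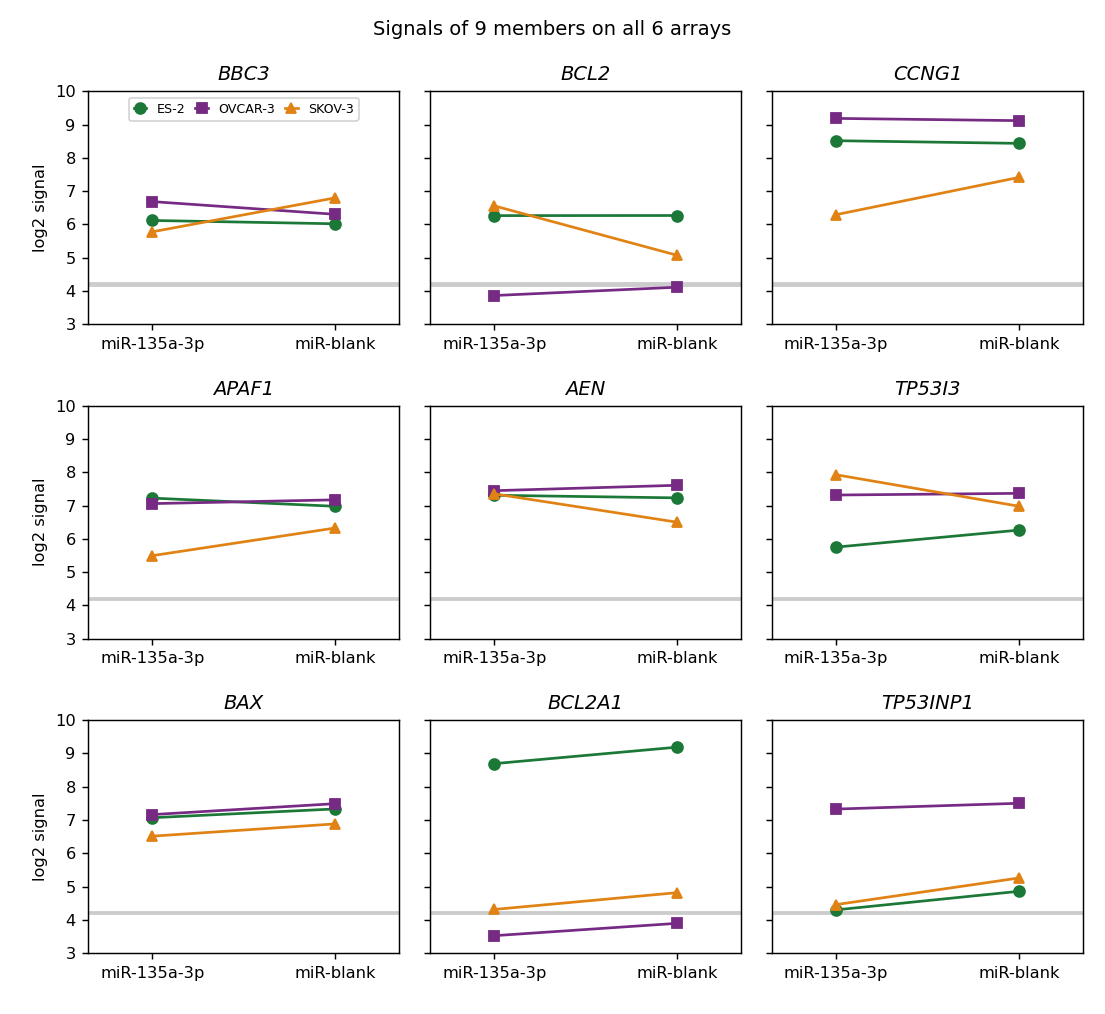
Each panel shows the log2 signal of 1 member on all 6 arrays, miR-135a-3p at the left and miR-blank at the right, with a line joining the 2 arrays of a cell line. The grey band spans the array medians (4.16 to 4.23). BBC3, BCL2 and CCNG1 slope in SKOV-3 and are nearly level in ES-2, while BAX, BCL2A1 and TP53INP1 are lower at the left in all 3 lines.

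Downstream of the mitochondria, APAF1 was the 1 member of the 5 listed caspase and apoptosome genes that was named. APAF1, the scaffold of the apoptosome and a p53 target, read 7.22, 7.06 and 5.50 after miR-135a-3p, against 6.98, 7.17 and 6.33 after miR-blank. SKOV-3 held the lowest array of each group. The differences were 0.25, -0.11 and -0.83 in ES-2, OVCAR-3, then SKOV-3, with a mean of -0.23 ± 0.55 (SD, n = 3; limma adjusted p 0.999). Without SKOV-3 the mean was 0.07, and without ES-2 it was -0.47.

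Among caspase inhibitors, 3 of 4 listed genes were tested and 0 were called. BIRC2, the gene of cIAP1, a ubiquitin ligase of TNF receptor complexes, read 9.03, 6.81 and 8.04 after miR-135a-3p, against 8.68, 6.96 and 7.86 after miR-blank. Its mean difference was 0.13 ± 0.26 (SD, n = 3; limma adjusted p 0.999), and it was 0.01 without ES-2 and 0.27 without OVCAR-3. XIAP, the direct inhibitor of caspases, had differences of -0.21 for ES-2, -0.39 for OVCAR-3 and 0.10 for SKOV-3. CFLAR, the gene of FLIP, which blocks caspase-8 at death receptors, had differences between -0.02 and 0.17. The largest absolute difference of these inhibitors in any line was that of XIAP in OVCAR-3.

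Among the p53 targets outside the BCL2 family and APAF1, 13 of 23 listed genes were named and 11 tested, and limma called 0. The median difference of the 11 was 0.06 for ES-2, -0.05 for OVCAR-3 and 0.29 for SKOV-3. In SKOV-3, 9 of 11 had higher signal after miR-135a-3p, where 4498 of 8620 genes tested had, and the exceptions were CCNG1 and TP53INP1. This count depends on the grouping, because BBC3 (-1.02) and APAF1 (-0.83), p53 targets placed under other roles, were lower there. Of the 7 tested pro-apoptotic BCL2 family members, with BBC3, BAX and PMAIP1 among them, 6 had lower and 1 higher signal in SKOV-3. Over all 26 tested members, 16 had higher and 10 lower signal there. Of the 14 other p53 circuit genes described last, 4 had higher and 10 lower signal in SKOV-3.

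CCNG1 encodes cyclin G1, a p53 target that recruits a phosphatase to MDM2. It read 8.51, 9.18 and 6.29 after miR-135a-3p in ES-2, OVCAR-3, then SKOV-3, against 8.43, 9.12 and 7.41 after miR-blank. SKOV-3 held the lowest array of each group, and the difference there was -1.12, or 2.17-fold lower, against 0.08 and 0.07 in ES-2 and OVCAR-3. The mean was -0.32 ± 0.69 (SD, n = 3; limma adjusted p 0.999). Without SKOV-3 it was 0.07, and it was -0.53 without ES-2 and -0.52 without OVCAR-3.

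PLK3, a stress-responsive kinase, had differences of -0.32, 0.05 and 0.19 in ES-2, OVCAR-3, then SKOV-3. FBXO22, a ubiquitin ligase subunit, read 7.07, 7.59 and 7.34 after miR-135a-3p, against 6.80, 7.55 and 7.005 after miR-blank. The array with miR-135a-3p was the higher of each pair, with a mean difference of 0.21 ± 0.16 (SD, n = 3; limma adjusted p 0.999), and the second FBXO22 probe set was also higher in every line. The OVCAR-3 difference of FBXO22, 0.04, was small beside the SD over all genes there.

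Genes of redox control, metabolism and DNA repair had 5 of 9 listed members tested. TP53I3, a quinone oxidoreductase also called PIG3, read 5.75, 7.32 and 7.93 after miR-135a-3p, against 6.26, 7.37 and 6.98 after miR-blank. SKOV-3 with miR-135a-3p was the highest array and ES-2 with miR-135a-3p the lowest. The differences were -0.51, -0.05 and 0.95 in ES-2, OVCAR-3, then SKOV-3, and the mean was 0.13 ± 0.74 (SD, n = 3; limma adjusted p 0.999). Without SKOV-3 the mean was -0.28, without OVCAR-3 0.22 and without ES-2 0.45.

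The sestrins restrain mTORC1 and act against oxidants. SESN1 read 4.88, 5.93 and 5.65 after miR-135a-3p, against 4.82, 5.70 and 5.47 after miR-blank, and its mean difference was 0.16 ± 0.09 (SD, n = 3; limma adjusted p 0.999). SESN2 had differences of 0.06 for ES-2, -0.52 for OVCAR-3 and 0.42 for SKOV-3, so SESN1 and SESN2 differed in sign in OVCAR-3. RRM2B, the p53-induced subunit of ribonucleotide reductase, read 6.67, 7.25 and 7.22 after miR-135a-3p, against 6.61, 7.14 and 7.08 after miR-blank. Its differences, 0.06 to 0.13, were small beside the SD over all genes in each line. TIGAR, a fructose bisphosphatase that lowers glycolysis, had differences of -0.33, -0.19 and 0.29 in ES-2, OVCAR-3, then SKOV-3.

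Among the p53 targets of death and survival, TP53INP1, a cofactor of p53 phosphorylation and autophagy, read 4.30, 7.33 and 4.46 after miR-135a-3p, against 4.86, 7.504 and 5.26 after miR-blank. The array with miR-135a-3p was the lower of each pair, and the signals in ES-2 and SKOV-3 came near the array median. The differences were -0.56, -0.17 and -0.80 in ES-2, OVCAR-3, then SKOV-3. The mean was -0.51 ± 0.32 (SD, n = 3), the lowest of the tested members, with an unadjusted limma p of 0.0188, an adjusted p of 0.999 and a 95% interval of -0.90 to -0.12.

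AEN, a nuclease of apoptotic DNA fragmentation, read 7.31, 7.45 and 7.35 after miR-135a-3p, against 7.23, 7.61 and 6.50 after miR-blank. The SKOV-3 array with miR-blank stood alone below the other arrays. The differences were 0.08, -0.16 and 0.85 in ES-2, OVCAR-3, then SKOV-3, and the mean was 0.26 ± 0.53 (SD, n = 3; limma adjusted p 0.999). Without SKOV-3 it was -0.04, and without OVCAR-3 it was 0.47. TRIAP1, an inhibitor of the apoptosome, had differences of -0.34, -0.30 and 0.50 in ES-2, OVCAR-3, then SKOV-3. Of the genes not tested, SPATA18, a factor of mitochondrial quality control, lay below the array median on all arrays (3.996 to 4.17), and RPS27L, a ribosomal protein relative, read 3.72 to 4.73.

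The lines differed from each other in 13 of the 26 tested members, called by limma (adjusted p under 0.05 over all genes tested, at least 2-fold, transfection as a block) in at least 1 pair of lines, where 25.2% of all genes tested were called. Between ES-2 and OVCAR-3, 7 members were called, 4 higher (8.65%) and 3 lower (7.82%) in ES-2, beside 16.5% of all genes tested. Between ES-2 and SKOV-3, 7 were called, 3 higher (4.85%) and 4 lower (7.29%) in ES-2, beside 12.1%, and between OVCAR-3 and SKOV-3, 9 were called, 4 higher (5.6%) and 5 lower (8.96%) in OVCAR-3, beside 14.6%. Here the error is how far the 2 arrays within a line depart from a shared transfection effect. Limma moves this error toward a value pooled over all genes tested, and p-values measure only that moderated spread. Nothing in the labels says that the arrays of a line came from separate cultures. TP53INP1 and BCL2L11 (highest in OVCAR-3) and BCL2 and BCL2A1 (highest in ES-2) averaged under 5 without that line, so their selection for testing already required a difference. BCL2 (5.81) and BCL2L11 (5.04) were also above 5 in SKOV-3. All of these genes are among the 13 called, and no count was made without them. That count is therefore not independent of the selection. Leaving out an array of the third line could not change the difference between the other lines. Of the 23 calls, 11 were kept whichever of the 6 arrays was left out, and these fell on 7 members, BCL2A1 and TP53INP1 among them.

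The OVCAR-3 signals of BCL2A1, BCL2 and PMAIP1 lay near or below the array median and could not be told from background, so the size of a difference against them is uncertain. BCL2A1 averaged 8.94 in ES-2, against 3.71 for OVCAR-3 and 4.57 for SKOV-3. The log2 difference was 5.23 for ES-2 minus OVCAR-3 (adjusted p 1.84e-05, limma) and 4.38 for ES-2 minus SKOV-3 (limma adjusted p 4.80e-05). Both ES-2 arrays stood far above the other 4. With 1 array left out the differences ran from 5.17 to 5.30 and from 4.34 to 4.41. BCL2A1 averaged under 5 without ES-2, so its p-values are not independent of its selection for testing.

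PMAIP1 averaged 4.19 in OVCAR-3, against 7.81 for ES-2 and 8.85 for SKOV-3. The OVCAR-3 arrays, at 4.15 and 4.22, lay at the array median. The differences were 3.62 for ES-2 minus OVCAR-3 (adjusted p 4.65e-05, limma) and -4.66 for OVCAR-3 minus SKOV-3 (limma adjusted p 3.63e-05), and both calls were kept with each array left out. ES-2 minus SKOV-3, at -1.04, was called but fell short of 2-fold without the miR-blank array of ES-2 (-0.92) or that of SKOV-3 (-0.91).

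BCL2 averaged 6.26 for ES-2, 3.99 for OVCAR-3 and 5.81 for SKOV-3. Without ES-2 its mean was under 5, so its p-values between lines are not independent of its selection for testing. ES-2 minus OVCAR-3 was 2.28 (limma adjusted p 0.00756) and OVCAR-3 minus SKOV-3 was -1.83 (limma adjusted p 0.0192). Without the OVCAR-3 array with miR-135a-3p these adjusted p were 0.0813 and 0.172. BCL2L1 averaged 8.07, 7.32 and 8.66 in ES-2, OVCAR-3, then SKOV-3, and OVCAR-3 minus SKOV-3 was -1.34 (limma adjusted p 0.00793), or 0.0824 without that same array. MCL1 averaged 9.43, 9.21 and 10.04, with no pair of lines past 2-fold.

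BAK1 averaged 8.86 in SKOV-3, against 7.48 in ES-2 and 7.89 in OVCAR-3. ES-2 minus SKOV-3 was -1.38 (limma adjusted p 0.0069), and the call was kept with each array left out. BAX averaged 7.20, 7.33 and 6.70 in ES-2, OVCAR-3, then SKOV-3, with every pair under 2-fold. BCL2L11 averaged 4.59 in ES-2 and 5.72 in OVCAR-3, a difference of -1.13 (limma adjusted p 0.00626). The call was lost without the miR-blank array of ES-2 (-0.92) and without either OVCAR-3 array (-1.11 and -1.14). BCL2L11 averaged under 5 without OVCAR-3, so its p-value is not independent of its selection for testing.

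Of genes around the caspases, CFLAR averaged 6.87 in SKOV-3, against 5.54 in ES-2 and 5.36 in OVCAR-3. ES-2 minus SKOV-3 was -1.33 (limma adjusted p 0.00277) and OVCAR-3 minus SKOV-3 was -1.51 (limma adjusted p 0.00125), both kept with each array left out. BIRC2 averaged 8.86 for ES-2, 6.88 for OVCAR-3 and 7.95 for SKOV-3. ES-2 minus OVCAR-3 was 1.98 (limma adjusted p 0.000575) and was kept with each array left out. OVCAR-3 minus SKOV-3, at -1.07 (limma adjusted p 0.00833), was lost without the OVCAR-3 array with miR-135a-3p (adjusted p 0.106). APAF1 averaged 7.10 in ES-2 and 7.12 in OVCAR-3, against 5.91 in SKOV-3. Its differences were 1.19 for ES-2 minus SKOV-3 (limma adjusted p 0.0236) and 1.21 for OVCAR-3 minus SKOV-3 (limma adjusted p 0.0197). Neither call was kept with each array left out, and without the SKOV-3 array with miR-135a-3p the differences were 0.74 and 0.76. Leaving out an array of the third line could not change a difference. APAF1 was therefore read in SKOV-3 from 2 arrays that themselves lay 0.83 apart.

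Among p53 targets, TP53INP1 averaged 7.42 in OVCAR-3, against 4.58 for ES-2 and 4.86 for SKOV-3. ES-2 minus OVCAR-3 was -2.84 (limma adjusted p 0.000183) and OVCAR-3 minus SKOV-3 was 2.56 (limma adjusted p 0.00038). With 1 array left out these ran from -3.09 to -2.58 and from 2.31 to 2.81. TP53INP1 averaged under 5 without OVCAR-3, so these p-values are not independent of its selection for testing. CCNG1 averaged 8.47 in ES-2 and 9.15 in OVCAR-3, against 6.85 in SKOV-3. OVCAR-3 minus SKOV-3 was 2.30 (limma adjusted p 0.00334) and was kept with each array left out, and ES-2 minus SKOV-3 was 1.62 (limma adjusted p 0.0144), or adjusted p 0.0584 without the ES-2 array with miR-135a-3p. SKOV-3 stood lowest for CCNG1 on both arrays.

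TP53I3 averaged 6.01 for ES-2, 7.34 for OVCAR-3 and 7.45 for SKOV-3. ES-2 minus OVCAR-3 was -1.33 (limma adjusted p 0.0268) and ES-2 minus SKOV-3 was -1.45 (limma adjusted p 0.0255). Neither call was kept with each array left out. With an array of the pair left out, the differences ran from -1.81 to -0.86 and from -2.06 to -0.83. Leaving out an array of the third line could not change them. SESN2 averaged 7.56 for OVCAR-3 and 6.44 for SKOV-3, a difference of 1.12 (limma adjusted p 0.0184) that was lost without the miR-blank array of OVCAR-3 (adjusted p 0.162) and fell short of 2-fold without that of SKOV-3 (0.80). The other 13 tested members were not called between any lines, among them PLK3, with line means of 6.03, 6.05 and 6.07, and BAD, with 7.53, 7.26 and 7.31.

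**Figure D3:**
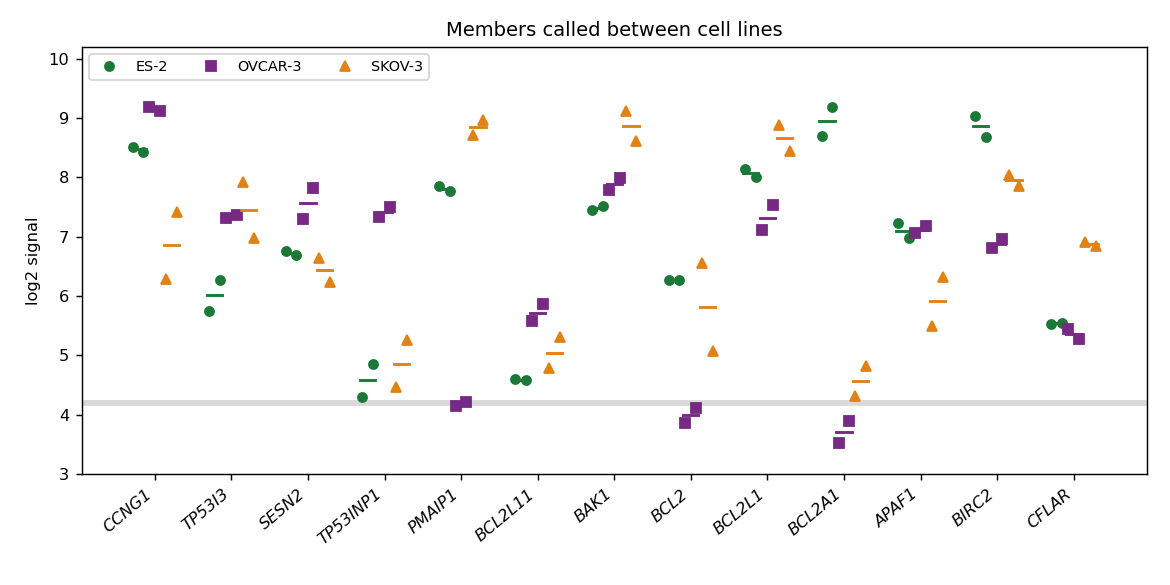
The vertical axis is the log2 signal of the 13 members called between lines, with symbols for the 2 arrays of each line (miR-135a-3p left, miR-blank right) and a bar for their mean. The grey band spans the array medians. BCL2A1 stands far higher in ES-2 (mean 8.94) than in the other lines, PMAIP1 lies at the band in OVCAR-3 (4.19), and the SKOV-3 symbols of CCNG1, BCL2 and TP53I3 lie widely apart.

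Of 24 other genes listed for the p53 circuit, 15 were named and 14 tested, and limma called 0 for the transfection. Their median differences were 0.10, -0.12 and -0.20 in ES-2, OVCAR-3, then SKOV-3, with 0 higher (9.54% of all genes tested) and 2 lower (13.4%) in all 3 lines. EDA2R, a TNF receptor family member and p53 target, had -2.31, -1.66 and -0.13 in ES-2, OVCAR-3, then SKOV-3. GDF15, a stress cytokine, had 0.62, 0.66 and -1.20, and KITLG, the ligand of KIT, 0.01, 0.61 and -1.46. Both OVCAR-3 signals of KITLG were under the array median. SESN3, the remaining sestrin, had 0.37, -1.20 and -0.66, and LIF, a cytokine, -0.27, 1.17 and 0.69. Past 2-fold, the p53 circuit thus had 5 of 14 genes in at least 1 line, beside 3 of 26 members and 4.94% of all genes tested. This list was chosen with earlier results of these data known, so its counts, here and between lines, are not independent of them.

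Between lines, 7 of these 14 genes were called for ES-2 minus OVCAR-3 (16.5% of all genes tested), 4 for ES-2 minus SKOV-3 (12.1%) and 4 for OVCAR-3 minus SKOV-3 (14.6%). TP73, a p53 relative, averaged 4.52 for ES-2, 6.65 for OVCAR-3 and 5.57 for SKOV-3, with limma adjusted p of 0.00054 for ES-2 minus OVCAR-3, 0.0135 for ES-2 minus SKOV-3 and 0.00982 for OVCAR-3 minus SKOV-3. PLK2, a kinase induced by p53, averaged 4.13 in OVCAR-3, against 8.86 for ES-2 and 8.88 for SKOV-3, so PLK2 and PMAIP1 both read near the array median in OVCAR-3 alone. KITLG averaged 2.79 and LIF 5.10 in OVCAR-3, against 6.14 and 7.16 in ES-2 and 7.73 and 7.32 in SKOV-3, and all of these pairs with OVCAR-3 were called. SESN3 averaged 8.25 in ES-2, against 4.68 for OVCAR-3 and 4.18 for SKOV-3. KITLG, SESN3 and EDA2R averaged under 5 without their highest line (SKOV-3, ES-2 and OVCAR-3, in that order), so their selection for testing already required a difference between lines. KITLG (6.14) and EDA2R (5.50) were also above 5 in ES-2. GDF15 averaged 5.82 in ES-2, against 7.64 for OVCAR-3 and 7.49 for SKOV-3 (limma adjusted p 0.0252 and 0.0408). EI24, a p53-induced protein of the endoplasmic reticulum, averaged 8.04 in ES-2 and 9.08 in OVCAR-3 (limma adjusted p 0.00546).

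Of 28 other genes of the death machinery, 15 were named and 14 tested. Limma called 0 for the transfection, 0 passed 2-fold in any line, and median differences were -0.00036, -0.11 and 0.05 in ES-2, OVCAR-3, then SKOV-3. In all 3 lines 2 were higher (9.54% of all genes tested) and 3 lower (13.4%). Between lines, 4 were called for ES-2 minus OVCAR-3 (16.5% of all genes tested), 3 for ES-2 minus SKOV-3 (12.1%) and 1 for OVCAR-3 minus SKOV-3 (14.6%). FADD, the adaptor of death receptors, averaged 9.46 in ES-2, against 7.25 for OVCAR-3 and 7.96 for SKOV-3 (limma adjusted p 0.000571 for ES-2 minus OVCAR-3 and 0.00453 for ES-2 minus SKOV-3). BOK, a BAX relative, averaged 6.21 in ES-2, against 7.96 for OVCAR-3 and 8.14 for SKOV-3 (limma adjusted p 0.000904 and 0.00109). BNIP3, a mitophagy receptor, averaged 11.30 in ES-2, against 10.05 for OVCAR-3 and 9.92 for SKOV-3 (limma adjusted p 0.00193 and 0.00221), and its differences after transfection lay between 0.0049 and 0.07. BNIP3L, its relative, averaged 9.03 in OVCAR-3, against 10.51 for ES-2 and 10.22 for SKOV-3 (limma adjusted p 0.0061 and 0.0155).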

How the data were processed

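The authors deposited 1 table of log2 signals for 53617 probe sets, 1 column per array. Per the submitters' processing notes, the tools include RMA, Transcriptome Analysis Console 3.0 and Affymetrix Expression Console 1.4, in roles that are unstated. RMA corrects background and makes the array distributions equal, so a shift of most genes in 1 direction would be removed. The log2 scale was read from the values, and the authors' genome build was not given in the sources used here. A total of 16098 probe sets with 1 gene symbol were named through the platform annotation, updated by Entrez identifier through a RefSeq table of GRCh38.p14. The 37519 others were unnamed here, and 0 had several symbols. Of several probe sets per gene, the one with the highest mean was used. Genes with a mean of at least 5 were tested with limma 3.58.1 in R 4.3.3 (lmFit, eBayes, two-sided), with the cell line as a block for the transfection, which leaves 2 residual degrees of freedom, and the transfection as a block between lines. The arrays of a line pair because they share the cell line, and their deviations about the means of the groups had correlations of 0.90 for ES-2, 0.91 for OVCAR-3 and 0.76 for SKOV-3. The number of arrays limits the precision. The response was not compared between lines by a test. Members were given array by array where they were among the 8 highest or 8 lowest mean differences, differed by at least 1.5-fold in a line, or were called between lines with a log2 difference of at least 2. Genes of the other lists were named where called or past 2-fold in a line. The remaining members were named by role, some after their values were seen. The members and lists were chosen with earlier results of these data known, so they are not independent of them. The procedure was tested on simulated data with the same transfection effect and the same noise in every line. A response that differs between lines was not simulated.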

Additional observations from a re-analysis of the deposited data

Results flagged for a closer look

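Members whose difference went past 1 SD of all genes tested in a pair of lines, in opposite directions, were looked up with a threshold chosen after the values were seen. With 1 array per line and transfection, the contrast between lines was not tested for any of them. TP53I3 had a log2 difference of 0.95 in SKOV-3 and -0.51 in ES-2. For BBC3 the SKOV-3 value was -1.02 and the OVCAR-3 value 0.38. TRIAP1 had 0.50 in SKOV-3 and -0.34 in ES-2.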

How the results depend on the processing

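Limma called 0 members for the transfection under every alternative run, with the lowest adjusted p of a member at 0.993 (cyclic loess) apart from the fits that left out a line, where it was 0.680 without SKOV-3. Without the replicate block (the cell line) the count was also 0, as it was with each line left out. The sign was followed for 16 members, of which 11 were still tested at a mean of at least 6, and it turned only in fits that left out a line. A change of filter, block or variance model leaves these mean differences as they are, so the sign could not turn there. Only equal array medians, quantile normalization, cyclic loess and the mean over probe sets could have turned it, and they did not. With 1 line left out the mean log2 difference ran from -0.46 to 0.24 for BBC3, from -0.28 to 0.45 for TP53I3, from -0.042 to 0.47 for AEN, from -0.53 to 0.074 for CCNG1, from -0.13 to 0.23 for BAK1, from -0.47 to 0.066 for APAF1 and from -0.13 to 0.74 for BCL2, and in each of these 7 the sign turned without SKOV-3. One sign in every line was shared by 3 members at a mean of at least 6 (22.3% of the genes then tested), where fewer are tested, and by 11 to 15 members in the remaining 2 lines with 1 line left out (44.4% to 54.2% of all genes tested). Between lines, at a mean of at least 6 the count for ES-2 minus OVCAR-3 was 3 (16.3% of the genes then tested). With no fold minimum it was 12 (29.2% of all genes tested), and 15 (25.6%) for OVCAR-3 minus SKOV-3. Without variance moderation all 3 counts were 0, where over all genes tested ES-2 minus SKOV-3 had 4 calls and the other pairs 0, and at an unadjusted p under 0.05 there were 8 members for ES-2 minus OVCAR-3 (28.2% of all genes tested), 9 for ES-2 minus SKOV-3 (23.6%) and 9 for OVCAR-3 minus SKOV-3 (26.1%). With 1 array left out the counts ran from 5 to 7 for ES-2 minus OVCAR-3, from 4 to 6 for ES-2 minus SKOV-3, lowest without the ES-2 array with miR-135a-3p, and from 5 to 10 for OVCAR-3 minus SKOV-3, lowest without the OVCAR-3 array with miR-135a-3p. The lone array of that line was then assumed to vary like the others. A fit on only the 4 arrays of the lines compared, chosen after seeing the data, gave 7, 5 and 9. The 3 members past 2-fold in SKOV-3 became 2 at a mean of at least 6 and, without BBC3, with equal array medians and with quantile normalization. The cause of these shifts was not tested. Apart from leaving out lines or arrays, 59 counts lay within 1.5 times those reported and 7 did not. Signals near the array median limit BCL2A1, BCL2 and PMAIP1 in OVCAR-3 and TP53INP1 in ES-2 and SKOV-3.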
